A study of Homo sapiens with 12 samples.

Results

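FK866, an inhibitor of the enzyme NAMPT, was compared with its vehicle in KP4 cells, an established human line labelled as pancreatic ductal cell carcinoma and as wild type. The comparison rests on 6 of the 12 RNA-seq libraries of the study, chosen by their labels. In 3 of them the cells had received 5 nM FK866 (FK) and in 3 the solvent DMSO alone, in both cases for 24 h. The other 6 libraries came from the same line after 10 mM metformin (Met, 3 libraries) or 10 mM metformin with 5 nM FK866 (Met+FK, 3 libraries). These 6 shared the estimate of the spread between libraries and served to ask whether the response to FK866 differed when metformin was present. Genes with a mean normalized count of at least 10 over the 12 libraries were tested, which were 15376 of the 36601 in the deposited table. PRDM12 stood just inside that limit with a mean of 10.0 and HOXA13 just outside it with 9.997. The labels number the libraries of each treatment 1 to 3 without saying that they came from separate cultures, so p-values measure the spread between these libraries, which may be technical. All values describe 1 cell line at 1 dose and 1 time. In bulk RNA, fewer cells that express a gene and less RNA of that gene per cell cannot be told apart.

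NAMPT makes nicotinamide mononucleotide from nicotinamide, the rate-limiting step of the salvage route by which most cells rebuild NAD. NAD carries electrons in glycolysis and respiration. It is also used up by sirtuins, by poly-ADP-ribose polymerases and by NAD glycohydrolases such as CD38, all of which release nicotinamide again. FK866 occupies NAMPT and starves this loop in cells that cannot make enough NAD from nicotinic acid or tryptophan.

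The libraries held between 30667735 and 41052203 read pairs each. Of the 9 ductal epithelial markers, the keratins KRT8 and KRT18 and the transcription factor SOX9 were abundant. KRT18 stood at 17937 to 18721 normalized counts in DMSO and 11644 to 15327 in FK (-0.43 ± 0.11, adjusted p = 0.0226), and SOX9 at 3405 to 4065 and 4362 to 5140 (0.36 ± 0.09, adjusted p = 0.0220). Of the 7 ductal markers tested none was called. By adjusted p alone 2 were lower and 1 higher, against 9.84% and 11.3% of all genes. Their median difference was -0.33, or -0.084 with the GC trend (described below) removed. The part of this shift in other results was not tested. KRT19 (35.4 to 75.0 normalized counts) and CDH1 (24.2 to 34.8) were scarce, EPCAM was under the limit for testing, and CFTR was at 0 in every library. None of the 7 acinar markers was tested, all having a mean under 1 count. Among fibroblast markers DCN was at 0 and COL1A2 reached at most 2.05 normalized counts in these 6 libraries, while COL1A1 stood at 128 to 175 in DMSO and 228 to 307 in FK. COL1A1 was the 1 of 5 tested fibroblast markers that rose (20%, against 2.73% of all genes), in a list too short to read that share. Its difference was 0.91 ± 0.19 (adjusted p = 0.0153, and 0.0814 without DMSO replicate 1), and its part in other results was not tested. CD3E, which marks T cells, was at 0 in the 6 libraries, while PTPRC, the pan-leukocyte marker, stood at 195 to 304 and did not differ between the groups (log2 difference 0.00 ± 0.20, SE, adjusted p = 1.0).

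With a limit on the fold change, more genes rose than fell with FK866. By limma-trend on log2(normalized count + 1), 420 genes rose with FK866 (2.73% of those tested) and 116 fell (0.754%) at a Benjamini-Hochberg adjusted p under 0.05 and a fold change over 1.5. Without the limit on the fold change, 1738 genes (11.3%) were higher and 1513 (9.84%) lower. All FK libraries lay above all DMSO libraries for 2644 genes (17.2%) and below them for 3322 (21.6%), so by this measure more genes were lower. Differences are given throughout as log2(normalized count + 1) in FK minus that in DMSO, with the standard error (SE) of the fit. This scale understates the change of genes with few counts.

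The same-numbered libraries of the treatments varied together, so each FK library was also set against the DMSO library of its number. In pair 2 1733 genes were more than 1.5-fold higher and 824 more than 1.5-fold lower in FK, against 716 and 583 in pair 1 and 1014 and 626 in pair 3. Pair 2 therefore carried the largest number of differences in both directions. Of the 420 genes that rose, 162 did so by more than 1.5-fold in each of the 3 pairs (1.05% of genes tested), and of the 116 that fell, 31 (0.202%). With no test at all, 193 genes (1.26%) were past 1.5-fold upwards in all 3 pairs and 49 (0.319%) downwards. Another 137 higher genes (0.891%) and 39 lower genes (0.254%) rested on replicate 2, meaning that pair 2 passed 1.5-fold while the mean of pairs 1 and 3 did not. The remaining 121 higher and 46 lower genes lay between these classes.

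**Figure D1:**
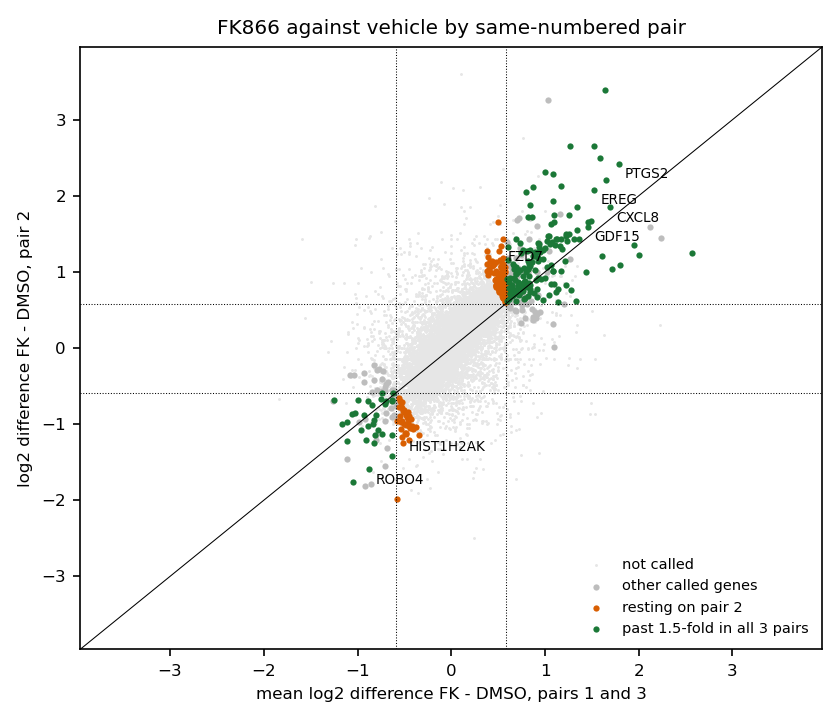
Log2 difference FK - DMSO in pair 2 (vertical axis) against the mean of pairs 1 and 3 (horizontal axis), 1 point per gene tested; dotted lines mark 1.5-fold and the solid line equal differences. The 162 higher and 31 lower genes past 1.5-fold in all 3 pairs are green, the 137 higher and 39 lower genes resting on pair 2 are orange and lie farther from 0 on the vertical axis than on the horizontal one, and other called genes are grey.

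Genes that rose were poor in GC and genes that fell rich in it, in both classes. The higher genes of the all-pairs class had a median GC content of 40.6% and those resting on replicate 2 of 39.8%, against 48.5% over all genes tested. The lower genes had a median GC content of 57.5% (all pairs) and 57.0% (replicate 2). Higher genes resting on replicate 2 were more abundant, with a median of 925 normalized counts against 155 for the all-pairs class and 724 over all genes tested. Each library also showed its own trend of expression against GC content. The slope was 0.196, 0.0429 and 0.180 log2 units per 10 GC points in DMSO replicates 1, 2 and 3, and 0.00266, -0.245 and -0.0247 in the FK libraries, so that FK replicate 2 had the lowest slope of the 12. All 3 FK slopes lay below all 3 DMSO slopes.

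After each library was corrected for its trend on GC content and length (below, the GC trend), 168 genes rose (1.1%) and 30 fell (0.196%). Of the 162 higher genes of the all-pairs class 84 still passed, as did 16 of the 137 resting on replicate 2, and 9 and 0 of the 31 and 39 lower genes. Leaving out both libraries numbered 2 gave 275 higher (1.79%) and 49 lower genes (0.319%), among them 131 of the 162 and 11 of the 31 genes of the all-pairs class. Single libraries decided many calls. Without DMSO replicate 1 only 84 genes rose and 10 fell, without FK replicate 2 87 and 13, and without DMSO replicate 3 148 and 33, whereas without FK replicate 1 955 rose and 198 fell and without DMSO replicate 2 1065 and 137. In the all-pairs class 56 higher and 4 lower genes were called in each of the 6 fits that left out 1 library, against 1 and 0 of those resting on replicate 2. Part of this contrast follows from the definitions, since the second class requires a mean of pairs 1 and 3 under 1.5-fold.

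**Figure D2:**
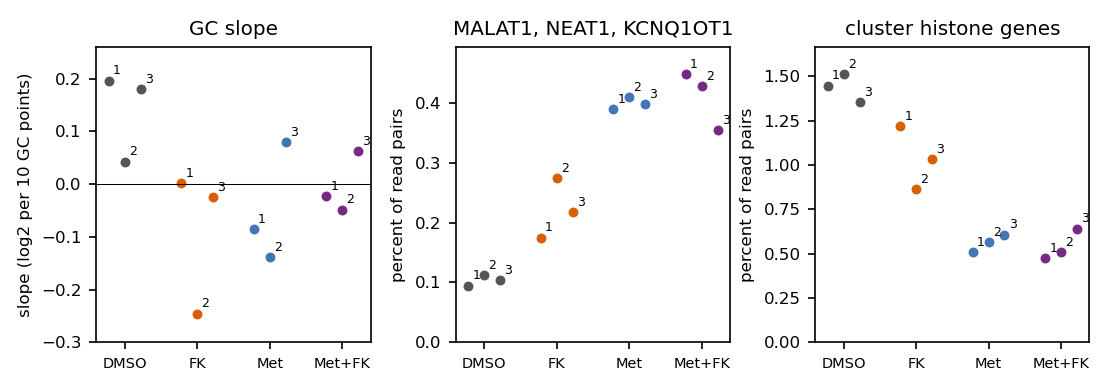
Slope of expression on GC content in log2 units per 10 GC points (left), percent of read pairs in MALAT1, NEAT1 and KCNQ1OT1 (middle) and percent in cluster histone genes (right) for each library, with its replicate number beside the point. FK replicate 2 has the lowest slope (-0.245) and, among the FK libraries, the highest share of the 3 nuclear RNAs (0.274%) and the lowest share of histone reads (0.864%).

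The 10 genes with the largest rises among abundant genes of the all-pairs class were PTGS2, NR4A2, CXCL8, EREG, ARRDC3, GDF15, TPPP, ATF3, SIPA1L2 and TCP11L2. PTGS2 (chr1:186671791-186680423, positions on hg38), the inducible cyclooxygenase that starts prostaglandin synthesis, led them. It stood at 344, 343 and 371 normalized counts in DMSO replicates 1 to 3 and at 1269, 1842 and 1200 in FK, a difference of 2.0 ± 0.15 (adjusted p = 4.45e-06). The lowest FK library was more than 3 times the highest DMSO library. Its 3 pairs differed by 1.88, 2.42 and 1.69, so replicate 2 gave the largest of 3 large differences. With the GC trend removed the difference was 1.61 (adjusted p = 1.86e-06).

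**Figure D3:**
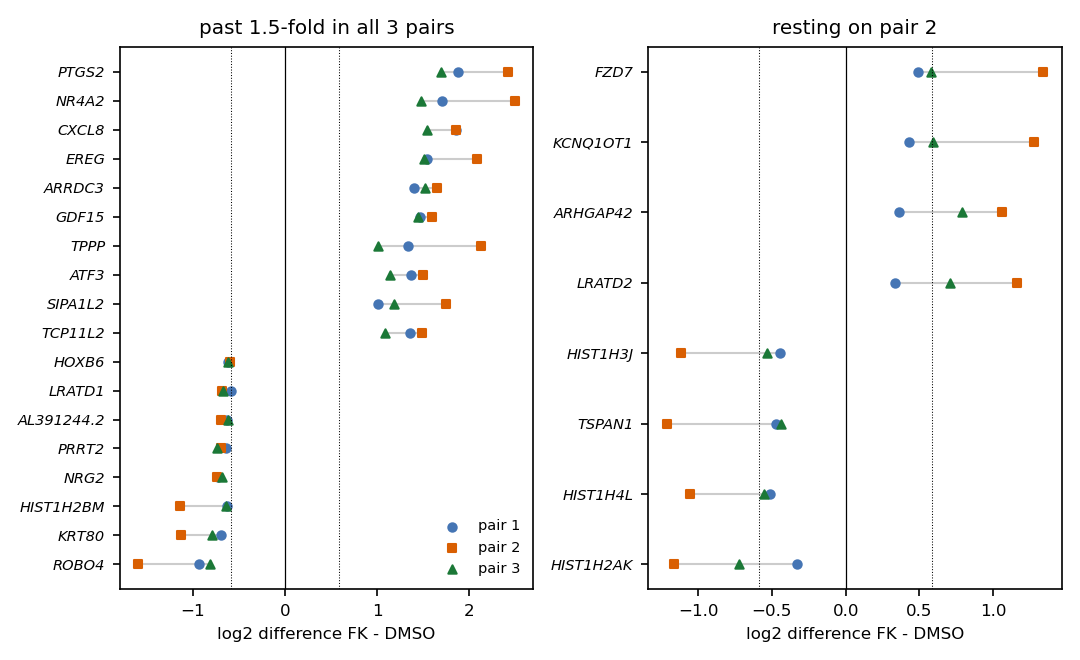
Log2 difference FK - DMSO in each of the 3 pairs for the genes of the all-pairs class with the largest changes (left, 10 higher and 8 lower) and for those resting on replicate 2 (right, 4 higher and 4 lower); dotted lines mark 1.5-fold. On the left all 3 points lie outside the dotted lines, as the class requires, and GDF15 and HOXB6 have their points nearly on top of each other. On the right pair 2 lies farthest out for each of the 8 genes.

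Inflammatory mediators were among the genes that moved most. The gene lists here and below were written with earlier results of these data known, and lists can share genes. Of the 22 tested, 5 rose (22.7%, against 2.73% of all genes) and none fell, and all 5 belonged to the all-pairs class: PTGS2, CXCL8, IL11, IL1B and IL1A. The list's median difference was 0.23, against -0.016 over all genes tested. CXCL8 (chr4:73740541-73743716), which attracts neutrophils, stood at 957, 1328 and 911.5 normalized counts in DMSO and at 3456, 4800 and 2654 in FK (1.75 ± 0.18, adjusted p = 8.98e-05). The groups lay well apart although replicate 2 was the highest library in both. IL11, a cytokine of the interleukin-6 family, stood at 113, 100.5 and 119 in DMSO and 227, 258 and 275.5 in FK (1.19 ± 0.14, adjusted p = 0.000255). IL1B rose by 0.90 ± 0.15 (adjusted p = 0.00450) and IL1A, at 31.2 to 36.5 normalized counts in DMSO and 53.8 to 90.2 in FK, by 0.98 ± 0.27 (adjusted p = 0.0278). IL1A was the weakest of the 5, with an adjusted p of 0.128 without FK replicate 2 and 0.0611 with the GC trend removed. NFKB2 and NFKBIA, a subunit and an inhibitor of NF-kappaB that this factor itself induces, were lower with differences of -0.36 ± 0.09 (adjusted p = 0.0225) and -0.33 ± 0.11 (adjusted p = 0.0426), both under 1.5-fold.

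The EGF family, which signals through EGFR and its relatives, had 4 of its 11 tested members higher (36.4%, against 2.73% of all genes). Another 1 was lower (9.09%, against 0.754% of all genes), and the median difference was 0.48. The median was 0.25 with the GC trend removed, with 3 members higher and 0 lower. EREG (chr4:74365145-74388749), an EGFR ligand, stood at 3136, 3071 and 2991 normalized counts in DMSO and at 9133, 13002 and 8508 in FK (1.71 ± 0.13, adjusted p = 4.45e-06). The 3 DMSO libraries lay close together and every FK library was more than 2 times higher, replicate 2 the highest. AREG, its neighbour on chromosome 4 (chr4:74445136-74455005) and also a ligand of EGFR, stood at 430.5, 481 and 499 against 880, 1113 and 847 (1.0 ± 0.11, adjusted p = 0.000255). NRG1, a ligand of ERBB3 and ERBB4, rose by 0.71 ± 0.08 (adjusted p = 0.000255), past 1.5-fold in all 3 pairs. With the GC trend removed the NRG1 difference was 0.25 (adjusted p = 0.124), so its call was lost in that step. TGFA rose by 0.77 ± 0.15 (adjusted p = 0.0125) without reaching 1.5-fold in pair 3 (0.51). NRG2, the related ligand that fell, stood at 615, 532 and 596 in DMSO and 372, 319 and 371 in FK (-0.71 ± 0.15, adjusted p = 0.0136). Its 3 pairs were alike (-0.72, -0.73 and -0.68), but its adjusted p was 0.0793 without DMSO replicate 1. EGFR itself was higher by 0.48 ± 0.08 (adjusted p = 0.00730), under 1.5-fold.

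Among targets of cAMP and the transcription factor CREB 5 of 15 tested genes rose (33.3%, against 2.73% of all genes). All 5 were past 1.5-fold in every pair, and the list's median difference was 0.43 with or without the GC trend. The 5 genes were NR4A2, NR4A3, INHBA, AREG and FOSB. Each is also counted in another list, AREG in the EGF family and INHBA in TGF-beta and BMP signalling. NR4A2, NR4A3 and FOSB are also counted among immediate early genes, so the shares of these lists are not independent. NR4A2 (chr2:156324437-156342348), an orphan nuclear receptor rapidly induced by many stimuli, stood at 83.1, 85.7 and 127 normalized counts in DMSO and at 273, 487 and 356 in FK (1.89 ± 0.25, adjusted p = 0.000892). Its relative NR4A3 stood at 34.6, 40.4 and 33.8 against 67.0, 149 and 116 (1.51 ± 0.24, adjusted p = 0.00376). The 2 receptors thus moved together, with FK replicate 1 the lowest FK library for both. NR4A1, also in the list, did not move with them. It stood at 113, 112 and 136 in DMSO and 118, 127 and 132 in FK, and its groups overlapped. INHBA, which encodes the subunit of activin A, stood at 147, 174 and 139 in DMSO and 264, 449 and 334 in FK (1.15 ± 0.19, adjusted p = 0.00482). FOSB, an AP-1 subunit, stood at 157, 167 and 203 in DMSO and at 328, 339 and 334 in FK (0.93 ± 0.15, adjusted p = 0.00351). CREM (0.29 ± 0.16, adjusted p = 0.193) and PDE4B (0.29 ± 0.13, adjusted p = 0.110), which cAMP also induces, did not pass, and their groups overlapped.

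Immediate early genes as a whole did not shift together. Of 27 tested, 6 rose (22.2%, against 2.73% of all genes), but the median difference was only 0.062. NR4A2, NR4A3, ATF3, FOSB and EGR2 rose in all 3 pairs and KLF4 in the class resting on replicate 2. EGR2 stood at 51.9 to 70.0 normalized counts in DMSO and 104 to 134 in FK (0.93 ± 0.20, adjusted p = 0.0168, and 0.0908 without DMSO replicate 1). The serum response factor gene SRF was lower, with a difference of -0.40 ± 0.07 (adjusted p = 0.00795), as were FOSL1 with -0.41 ± 0.10 (adjusted p = 0.0248) and EGR1 with -0.38 ± 0.13 (adjusted p = 0.0474), none of them past 1.5-fold. FOS itself stood at 147 to 183 in DMSO and 178 to 210 in FK (0.25 ± 0.20, adjusted p = 0.341).

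Promoters of these genes were read to show what the sequence before their start sites holds. A CRE, the palindromic CREB site TGACGTCA, was searched on both strands in windows of 300 bases, from 250 before to 50 after each RefSeq start site (GRCh38.p14). Windows were found for 107 of the 162 higher genes of the all-pairs class, 162 windows in all, and for 10829 of the genes tested, 15806 windows in all. A CRE was present in 4 windows of the all-pairs class (2.47%), of AREG, DUSP8, NRCAM and ZBTB21, and in 2.74% of all windows. The half-site TGACG, which every CRE also contains, was in 30.2% and 31.3% of windows, the AP-1 site TGANTCA in 7.41% and 5.39%, and TTGCATCA, a composite element bound by ATF4, in 0% and 0.5%. The shares differed between gene sets. A CRE was in 4 of the 32 windows of the cAMP and CREB list (12.5%), of AREG, CREM and DUSP1, of which only AREG was called. These windows belonged to 13 genes, and none was found for NR4A2. The list was made up of CREB targets, so its share is not an independent result. A CRE was in 1.91% of the windows of higher genes resting on replicate 2 and in none of the 26 of inflammatory mediators. The AP-1 site was in 4 of those 26 (15.4%). The ATF4 element was in 2 of 37 windows of the integrated stress response list (5.41%) and in 1.91% of those of the higher genes on replicate 2. These lists hold few windows, and a match is a description of letters only. The stretches below show the CRE of AREG and of DUSP8, a MAPK phosphatase, and the half-sites of NR4A3 and of PTGS2, with the matches in capitals, each ending before the start site.
AREG, plus strand of chr4:74445041-74445108: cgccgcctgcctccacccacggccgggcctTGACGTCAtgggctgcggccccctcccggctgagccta
DUSP8, minus strand of chr11:1572308-1572419: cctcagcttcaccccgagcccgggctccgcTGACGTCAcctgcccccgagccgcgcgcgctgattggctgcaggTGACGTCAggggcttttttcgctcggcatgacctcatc
NR4A3, plus strand of chr9:99821746-99821884: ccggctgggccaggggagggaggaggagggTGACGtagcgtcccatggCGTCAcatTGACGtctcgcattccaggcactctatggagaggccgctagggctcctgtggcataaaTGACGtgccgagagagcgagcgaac
PTGS2, minus strand of chr1:186680447-186680511: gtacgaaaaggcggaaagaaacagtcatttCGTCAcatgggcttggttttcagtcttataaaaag

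The DUSP8 stretch holds 2 full CREs and the NR4A3 window 4 half-sites, of which 1 reads on the opposite strand as CGTCA. The PTGS2 stretch shows the half-site that ends 54 bases before the start; its window holds 1 more after the start and no full CRE. DUSP8 itself was barely expressed, at 3.94 to 4.62 normalized counts in DMSO and 8.04 to 19.5 in FK (1.21 ± 0.36, adjusted p = 0.0353), and its adjusted p was 0.201 without FK replicate 2. NRCAM and ZBTB21 were named after their windows were read.

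The integrated stress response, in which phosphorylated eIF2alpha raises translation of ATF4 and ATF4 then induces amino acid genes, moved in part. Of 32 tested genes 5 rose (15.6%, against 2.73% of all genes), and the median difference was 0.29. By adjusted p alone 13 were higher, against 11.3% of all genes, and none was lower. GDF15, a secreted stress hormone (chr19:18374731-18389176), stood at 505, 478 and 524 normalized counts in DMSO and 1403, 1443 and 1433 in FK (1.5 ± 0.09, adjusted p = 4.01e-07). The 3 FK libraries were nearly equal and lay far above the DMSO libraries. ATF3 (chr1:212565334-212620777), a stress-induced transcription factor, stood at 625, 610 and 671 in DMSO and 1611, 1719 and 1480 in FK (1.33 ± 0.08, adjusted p = 3.91e-07). SLC7A11, the cystine and glutamate exchanger, stood at 2287, 2855 and 1820 against 4120, 6397 and 3950 (1.04 ± 0.18, adjusted p = 0.00687) and kept a difference of 0.60 (adjusted p = 0.00107) with the GC trend removed. ASNS, asparagine synthetase, stood at 121, 122 and 83.9 against 218, 202 and 161 (0.83 ± 0.16, adjusted p = 0.0109), and its pair 2 was the smallest of the 3 (0.72). STC2, a secreted glycoprotein, rose by 0.77 ± 0.10 (adjusted p = 0.000875) but by 0.53 in pair 1.

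Other members of that response did not pass both limits, some being close to their vehicle level and some higher. ATF4 mRNA stood at 13259 to 15378 normalized counts in DMSO and 13611 to 15637 in FK (-0.01 ± 0.07, adjusted p = 0.901). CEBPB (0.05 ± 0.08, adjusted p = 0.660), PPP1R15A (-0.04 ± 0.10, adjusted p = 0.784), TRIB3 (0.19 ± 0.12, adjusted p = 0.252) and PHGDH (-0.11 ± 0.08, adjusted p = 0.301) did not pass. DDIT3, which encodes CHOP, was higher by 0.39 ± 0.13 (adjusted p = 0.0458) and CHAC1, which degrades glutathione, by 0.51 ± 0.12 (adjusted p = 0.0192), both under 1.5-fold. MTHFD2 stood at 11308.5 to 13431 normalized counts in DMSO and 15889 to 18204 in FK. XPOT stood at 7174 to 8179 against 9414 to 13238, and neither was called. UPP1, uridine phosphorylase, which is not in this list, did not pass (-0.06 ± 0.07, adjusted p = 0.522).

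**Figure D4:**
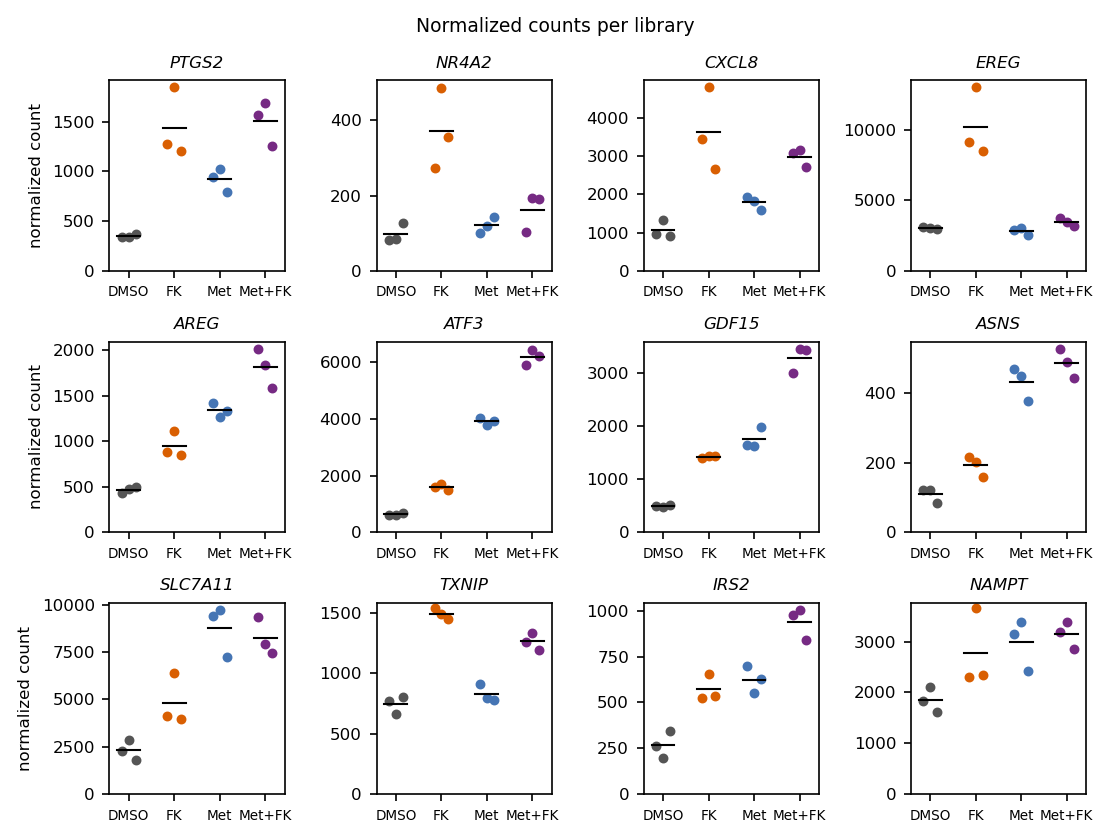
Normalized counts (vertical axes from 0) of 12 genes in the 3 libraries of each treatment, in the order of replicates 1 to 3 from left to right, with the group mean as a bar. PTGS2, EREG, GDF15 and ATF3 have all 3 FK points above all 3 DMSO points with gaps wider than the spread within either group, whereas the NAMPT points of FK replicates 1 and 3 (2307 and 2351) lie close to the highest DMSO point (2102).

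Genes that sense energy and glucose supply formed a small group with 3 of 16 tested members higher (18.8%, against 2.73% of all genes). All 3 were in the all-pairs class, and the list's median difference was 0.29, or 0.093 with the GC trend removed. TXNIP, an alpha-arrestin that restrains glucose uptake, stood at 767, 661 and 805 normalized counts in DMSO and 1541, 1496 and 1452 in FK (1.01 ± 0.09, adjusted p = 3.93e-05). ARRDC4, its relative, stood at 86.6, 116 and 94.1 against 199, 288 and 214 (1.22 ± 0.15, adjusted p = 0.000593). A further alpha-arrestin, ARRDC3, was among the 10 largest rises, at 1968, 2511 and 1809 against 5213, 7883 and 5171 (1.52 ± 0.16, adjusted p = 0.000155). These 3 alpha-arrestins each had pairs of similar size, 0.85 to 1.18 for TXNIP, 1.17 to 1.30 for ARRDC4 and 1.41 to 1.65 for ARRDC3. IRS2, an adaptor of the insulin receptor, rose by 1.12 ± 0.16 (adjusted p = 0.00181), with pairs between 0.65 and 1.73. DDIT4, an mTORC1 inhibitor, stood at 2350, 2125 and 2102 in DMSO and 3353, 3003 and 3145 in FK, a difference of 0.53 ± 0.08 (adjusted p = 0.00273) that stayed under 1.5-fold in the main fit and was 0.78 (adjusted p = 2.90e-07) with the GC trend removed.

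Of 18 tested genes of TGF-beta and BMP signalling 3 rose in all 3 pairs (16.7%, against 1.05% of all genes). Another 1 fell (5.56%, against 0.754% of all genes), and the list's median difference was 0.11. The 3 that rose encode secreted ligands or their subunits. Beside INHBA these were BMP2, at 42.4 to 50.1 normalized counts in DMSO and 102 to 133 in FK (1.3 ± 0.16, adjusted p = 0.000561), and BMP4, at 8.18 to 13.8 against 26.5 to 31.0 (1.29 ± 0.29, adjusted p = 0.0190, and 0.0622 without DMSO replicate 3). TGFBI, an extracellular matrix protein induced by TGF-beta, fell by 0.68 on the log2 scale (SE 0.20, adjusted p = 0.0328) and rested on replicate 2. HES1, the Notch target, rose by 0.64 ± 0.08 (adjusted p = 0.000783), at 1172 to 1361 against 1908 to 1971, with pair 3 at 0.53.

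None of the 15 tested NAD synthesis genes was called, a count near the share over all genes (2.73% higher, 0.754% lower) for so short a list. By adjusted p alone 3 were higher and 1 lower, against 11.3% and 9.84% of all genes. Their differences ran from -0.58 to 0.89 with a median of -0.048. NAMPT, the target of FK866 (chr7:106248298-106286326), stood at 1830, 2102 and 1615 normalized counts in DMSO and 2307, 3662 and 2351 in FK. All 3 FK libraries were higher, by 0.33, 0.80 and 0.54 in the pairs, and the difference of 0.56 ± 0.16 (adjusted p = 0.0333) was just under 1.5-fold. With the GC trend removed it was 0.15 (adjusted p = 0.147). FK866 acts on the NAMPT protein, so its mRNA does not check the treatment. KYNU, in the route from tryptophan, was higher by 0.51 ± 0.16 (adjusted p = 0.0387) and NADK2, the mitochondrial NAD kinase, by 0.46 ± 0.14 (adjusted p = 0.0371). PNP, which releases nicotinamide from its riboside, was lower, at -0.34 ± 0.10 (adjusted p = 0.0369). KMO, next to KYNU in the tryptophan route, had too few counts for a firm statement: 11.5, 12.8 and 16.4 in DMSO against 25.5, 26.5 and 25.3 in FK (0.89 ± 0.31, adjusted p = 0.0513, and 0.0328 in a fit blocked by replicate number).

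The remaining NAD synthesis genes did not pass. NAPRT, which uses nicotinic acid, stood at 33.5 to 41.9 normalized counts in DMSO and 18.9 to 29.8 in FK (-0.58 ± 0.22, adjusted p = 0.0706). NADSYN1, which completes NAD from both nicotinic acid and tryptophan, stood at 1986 to 2064 against 1487 to 1806 (-0.28 ± 0.10, adjusted p = 0.0545). The adenylyl transferases NMNAT1 (-0.05 ± 0.09, adjusted p = 0.701) and NMNAT2 (-0.14 ± 0.15, adjusted p = 0.491) and the riboside kinase NMRK1 (0.15 ± 0.15, adjusted p = 0.451) had overlapping groups, as did NNMT, which methylates nicotinamide (-0.05 ± 0.10, adjusted p = 0.707). AFMID (-0.25 ± 0.09, adjusted p = 0.0652) and TDO2 (0.14 ± 0.31, adjusted p = 0.746) of the tryptophan route, the kinase NADK (-0.16 ± 0.08, adjusted p = 0.123) and the mitochondrial carrier SLC25A51 (0.17 ± 0.08, adjusted p = 0.131) differed by less. NMNAT3, NMRK2, HAAO, QPRT and IDO1 were under the limit for testing, QPRT with a mean of 2.87 normalized counts over the 12 libraries and IDO1 with 9.14.

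Of the 20 NAD consumers 1 rose (5%, against 2.73% of all genes), the deacylase SIRT1, and none fell. For so short a list this count is near that share. SIRT1 stood at 1410, 1646 and 1384 normalized counts in DMSO and 1977, 2734 and 2077 in FK (0.60 ± 0.12, adjusted p = 0.0136), rested on replicate 2 and had an adjusted p of 0.0745 without DMSO replicate 1. With the GC trend removed no NAD consumer was called. The tankyrases TNKS (0.42 ± 0.09, adjusted p = 0.0136) and TNKS2 (0.55 ± 0.13, adjusted p = 0.0209) and PARP14 (0.44 ± 0.13, adjusted p = 0.0336) were higher, and PARP3 (-0.41 ± 0.12, adjusted p = 0.0328) and PARP12 (-0.26 ± 0.08, adjusted p = 0.0404) lower, all under 1.5-fold. SIRT2 to SIRT7 lay between -0.29 and 0.0034, with no adjusted p under 0.05. PARP1, the founding polymerase, stood at 9537 to 11032 normalized counts in DMSO and 9712 to 10026 in FK (-0.07 ± 0.07, adjusted p = 0.438). PARP2 (0.03 ± 0.08, adjusted p = 0.808), PARP4 (0.24 ± 0.10, adjusted p = 0.0843), PARP9 (-0.07 ± 0.14, adjusted p = 0.733) and PARP10 (-0.32 ± 0.17, adjusted p = 0.162) did not pass. CD38 stood at 36.5 to 52.2 against 56.2 to 77.9 (0.51 ± 0.21, adjusted p = 0.0782), and the glycohydrolases BST1 (-0.07 ± 0.23, adjusted p = 0.846) and SARM1 (-0.02 ± 0.14, adjusted p = 0.933) overlapped between the groups.

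The metabolic machinery that uses NAD held no called gene, in lists so short that the share over all genes (2.73% higher, 0.754% lower) would give few or none. None of 22 glycolysis genes, 37 nuclear complex I subunits, 24 enzymes of the TCA cycle and of pyruvate and malate, 7 of the pentose phosphate pathway or 13 mitochondrially encoded subunits passed both limits. By adjusted p alone 6 glycolysis genes and 11 complex I genes were lower, against 9.84% of all genes, and 2 and 1 were higher, against 11.3%. The medians were -0.19 for glycolysis and -0.19 for complex I, against -0.016 over all genes, and 0.0022 and -0.032 with the GC trend removed. Cytosolic ribosomal proteins (82 tested), mitochondrial ribosomal proteins (77), DNA replication (34) and ribosome biogenesis (27) also had no called gene. Their medians lay between -0.16 and -0.12, and between -0.096 and -0.039 with the GC trend removed. By adjusted p alone 20, 14, 9 and 9 of their genes, in this order, were lower, against 9.84% of all genes. Higher by adjusted p alone were 0, 3, 2 and 3, against 11.3%.

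**Figure D5:**
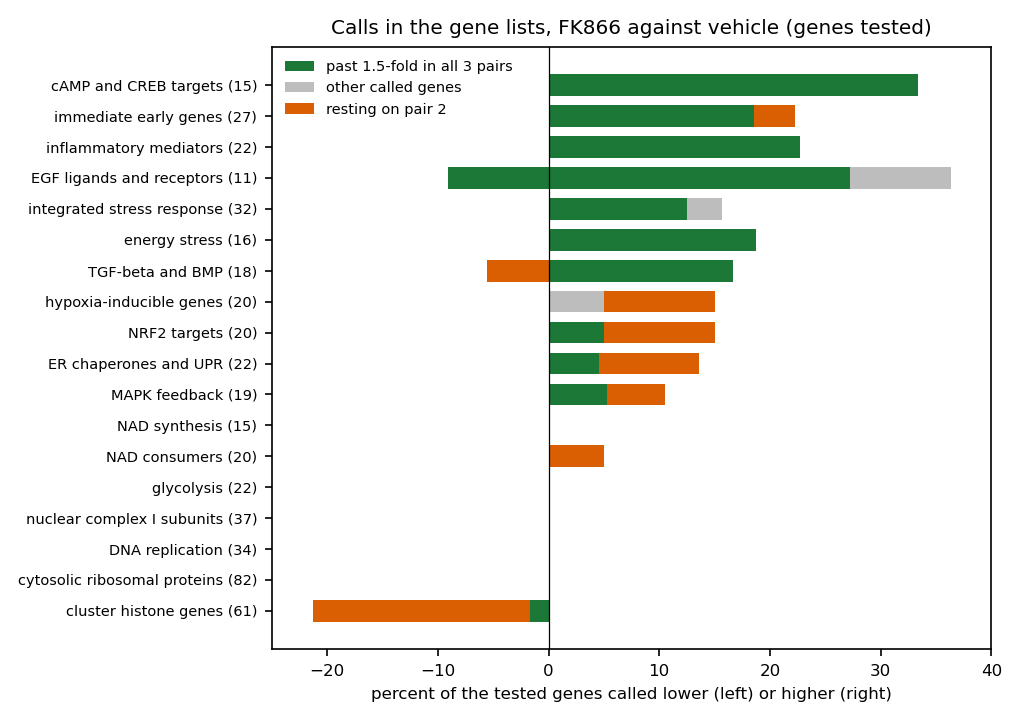
Percent of the tested genes of 18 gene lists that were called lower (to the left of 0) or higher (to the right) with FK866, with the number tested in brackets and the colour giving the class. The lists from cAMP targets to energy stress are mostly green (past 1.5-fold in all 3 pairs), the histone bar is almost wholly orange (12 of 13 calls resting on pair 2), and glycolysis, complex I, DNA replication and ribosomal proteins have no bar.

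Lists on protein folding, oxidative stress and oxygen supply each had 3 calls, all higher, at shares above the 2.73% of all genes. Most of these calls lay outside the all-pairs class, as they did over all genes, where 162 of the 420 higher genes lay inside it. Of 22 genes of endoplasmic reticulum chaperones and the unfolded protein response 3 rose (13.6%). DNAJB9, a co-chaperone, stood at 289, 330 and 285 normalized counts in DMSO and 565, 709 and 468 in FK (0.93 ± 0.17, adjusted p = 0.00837) and belonged to the all-pairs class, with an adjusted p of 0.0502 without DMSO replicate 1. SEL1L, of the degradation machinery, and DNAJC3, an inhibitor of the kinase PERK, rose by 0.65 ± 0.12 (adjusted p = 0.010) and 0.59 ± 0.12 (adjusted p = 0.0124) and rested on replicate 2. ERN1, the sensor IRE1, was higher by 0.43 ± 0.09 (adjusted p = 0.0179), under 1.5-fold. Of 20 NRF2 targets 3 rose (15%), SLC7A11 in all pairs, GCLC (0.62 ± 0.11, adjusted p = 0.00898) and NFE2L2 itself (0.61 ± 0.17, adjusted p = 0.0313) on replicate 2. OSGIN1 was higher by 0.45 ± 0.11 (adjusted p = 0.0231), under 1.5-fold, and NQO1, the usual marker of NRF2, by 0.13 ± 0.07 (adjusted p = 0.149). Of 20 hypoxia-inducible genes 3 rose (15%), VEGFA and NDRG1 resting on replicate 2 and the matrix enzyme LOX (0.71 ± 0.22, adjusted p = 0.0378) between the classes. VEGFA stood at 5175, 4537 and 5466 against 7504, 7812 and 8167 (0.63 ± 0.08, adjusted p = 0.000593) and NDRG1, a stress-induced regulator of growth, at 1792, 1647 and 1695 against 2537, 2746 and 2478 (0.60 ± 0.07, adjusted p = 0.000342).

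VEGFA and NDRG1 fell into the replicate 2 class only because pairs 1 and 3 averaged just under 1.5-fold (0.54 and 0.58 for VEGFA, 0.50 and 0.55 for NDRG1). Their adjusted p stayed under 0.05 in each of the 6 fits that left out 1 library. With both libraries numbered 2 left out it was 0.000966 for VEGFA and 0.00121 for NDRG1. KLF4 was alike, with pairs of 0.39, 0.97 and 0.60 and an adjusted p of 0.00633 without replicate 2. By both limits, 5 of the 137 higher genes of the class were still called without FK replicate 2. FZD7 alone was called in each of the 6 fits that left out a library. VEGFA, NDRG1 and KLF4 were not, since their smallest differences in these fits were 0.56, 0.55 and 0.57, under 1.5-fold.

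Other lists held single calls or none, and were so short that the share over all genes (2.73% higher, 0.754% lower) would give few or none. CCNG1 was the 1 of 24 p53 targets that rose (0.59 ± 0.12, adjusted p = 0.0136) and NR1D2 the 1 of 18 clock genes (0.63 ± 0.18, adjusted p = 0.0319, on replicate 2). AMOTL2, an inhibitor of YAP and itself a YAP target, was the 1 of 18 YAP targets that fell (-0.61 ± 0.10, adjusted p = 0.00449). With the GC trend removed no p53 or YAP target was called. By adjusted p alone 6 members were higher in each of these lists, and 2, 0 and 7 were lower, against 11.3% and 9.84% of all genes. No gene passed both limits among 25 apoptosis genes, 26 interferon-stimulated genes, 25 genes of autophagy and lysosomes, 31 proteasome subunits or 29 mitotic genes, and the medians of these lists lay between -0.17 and 0.11.

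The 4 largest rises of abundant genes that rested on replicate 2 were FZD7, KCNQ1OT1, ARHGAP42 and LRATD2. FZD7, a Wnt receptor, stood at 298, 200 and 276 normalized counts in DMSO and 419, 508 and 413 in FK, with pairs of 0.49, 1.34 and 0.58. Replicate 2 was the lowest DMSO library and the highest FK library, which widened its pair from both sides. KCNQ1OT1, an imprinted nuclear RNA whose reads may include those of the gene on the opposite strand, behaved in the same way, at 238, 160 and 209 against 321, 389 and 315. ARHGAP42 stood at 87.7, 97.5 and 72.6 against 113, 204 and 126, and LRATD2 at 35.8, 33.5 and 34.8 against 45.3, 76.1 and 57.4. Their adjusted p-values without both libraries numbered 2 were 0.00855 for FZD7, 0.107 for KCNQ1OT1, 0.0461 for ARHGAP42 and 0.0613 for LRATD2.

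Zinc finger ZNF genes are a large family of mostly repressive transcription factors. Of 411 tested 17 rose (4.14%, against 2.73% of all genes), 12 of them resting on replicate 2 (against 0.891% of all genes) and 1 in all pairs, and none fell. The family's median difference was 0.12, 0.32 and 0.20 in pairs 1, 2 and 3 and 0.22 in the fit, against 0.076 with the GC trend removed, when 4 genes passed. Its median GC content was 43.2%.

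Cluster histone genes were the main group that fell, and almost all of those calls rested on replicate 2. Of 61 tested 13 fell (21.3%, against 0.754% of all genes), 12 of them resting on replicate 2. By adjusted p alone 50 were lower, against 9.84% of all genes. The median difference was -0.30, -0.83 and -0.42 in pairs 1, 2 and 3. HIST1H2BM (chr6:27815044-27815424) was the member in the all-pairs class, at 4280, 4079 and 3742 normalized counts in DMSO and 2768, 1845 and 2396 in FK (-0.81 ± 0.14, adjusted p = 0.00506). HIST1H4L stood at 6802, 6960 and 5871 against 4755, 3341 and 3995 (-0.71 ± 0.13, adjusted p = 0.010), HIST1H3J at 7138, 7664 and 6441 against 5241, 3536 and 4453, and HIST1H2AK at 1528, 1609 and 1446 against 1215, 717 and 876. In all 4 genes the FK libraries lay below the DMSO libraries, as they did for 21.6% of all genes tested, and FK replicate 2 was the lowest. With the GC trend removed the family's median was -0.26 and no member passed both limits, since HIST1H2BM then stood at -0.58 (adjusted p = 0.00404). Histone genes took 1.45%, 1.51% and 1.35% of read pairs in DMSO and 1.22%, 0.864% and 1.03% in FK. Their copies are near-identical, so counts of single histone genes are uncertain, and their transcripts have a median GC content of 58.2%.

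The nuclear long noncoding RNAs MALAT1 and NEAT1 rose in all 3 pairs. MALAT1 stood at 32048, 37516 and 33690 normalized counts in DMSO and 55801, 90074 and 69718 in FK (1.04 ± 0.13, adjusted p = 0.000423). NEAT1, the scaffold of paraspeckles, stood at 2685, 2555 and 3128 against 6468, 6446 and 6502 (1.22 ± 0.25, adjusted p = 0.0136), with an adjusted p of 0.0617 with the GC trend removed. The share of read pairs from MALAT1, NEAT1 and KCNQ1OT1 together was 0.0950%, 0.113% and 0.104% in DMSO and 0.175%, 0.274% and 0.217% in FK, again with replicate 2 the most distant. These RNAs stay in the nucleus. Histone mRNAs mostly lack poly(A) tails, but the libraries were prepared by depletion of ribosomal RNA. The part of both groups of RNA in the other results was not tested.

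Outside the histones few abundant genes fell in all pairs. The rule for naming genes gave 8 with a mean of at least 100: ROBO4, KRT80, HIST1H2BM, NRG2, PRRT2, AL391244.2, LRATD1 and HOXB6. ROBO4, a receptor of endothelial guidance, stood at 204, 175 and 205 normalized counts in DMSO and 107, 57.5 and 116 in FK (-1.11 ± 0.24, adjusted p = 0.0163), with an adjusted p of 0.0816 without DMSO replicate 1. KRT80, an epithelial keratin, stood at 3704, 3383 and 3680 against 2289, 1552 and 2130 (-0.87 ± 0.14, adjusted p = 0.00454). It was the single call among 13 keratins and cadherins (7.69%, against 0.754% of all genes lower), a list too short to read that share. HOXB6, a homeobox factor, had even pairs of -0.62, -0.59 and -0.61 (adjusted p = 0.00430), and just passed 1.5-fold. LRATD1 (-0.65 ± 0.11, adjusted p = 0.00457) had pairs between -0.59 and -0.68. PRRT2, a membrane protein of synapses (-0.69 ± 0.15, adjusted p = 0.0164), and the long noncoding AL391244.2 (-0.65 ± 0.13, adjusted p = 0.0116) completed the set, and both lost an adjusted p under 0.05 without DMSO replicate 1 (0.0816 and 0.0629). TSPAN1, a tetraspanin, fell on replicate 2 (151, 171 and 173 against 109, 73.4 and 127).

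The effect of FK866 in cells already exposed to metformin was measured in the other 6 libraries, which share none with the comparison above. By the same limits Met+FK exceeded Met for 8 genes (0.052%) and fell short of it for 1 (0.0065%). Of the 162 higher genes of the all-pairs class 58 (35.8%) were above Met in all 3 Met+FK pairs, against 25.1% of all genes tested, and of the 137 resting on replicate 2 25 (18.2%). Of the 31 lower genes of the all-pairs class 13 (41.9%) were below Met in all 3 pairs, against 17.5% of all genes tested, and of the 39 resting on replicate 2 16 (41.0%). GDF15 rose from 1645, 1623 and 1989 normalized counts in Met to 2999, 3447 and 3433 in Met+FK (0.91 ± 0.09, adjusted p = 0.000756), ATF3 by 0.66 (adjusted p = 0.00272) and TXNIP by 0.61 (adjusted p = 0.0220). NR4A2 differed by 0.38 ± 0.25 (adjusted p = 0.824) and IL11 by 0.41 (adjusted p = 0.515). FAM110B (0.63, adjusted p = 0.0220) and HES1 (0.61, adjusted p = 0.0139), like these 3, rose in both settings.

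A test of the difference between both FK866 effects called 9 genes (0.0585%), with 4695 genes at an unadjusted p under 0.05. PTGS2, EREG and ATF3 were among the 8 that were higher with FK866 alone and differed less, or in the other direction, in the presence of metformin, and CCN1, a YAP target, was lower with FK866 alone (-0.44 ± 0.10) and not with metformin (0.37, adjusted p = 0.260). EREG stood at 2914, 3045 and 2532 normalized counts in Met and 3766, 3490 and 3151 in Met+FK, and its effects differed by -1.42 ± 0.18 (adjusted p = 0.0174). With the replicate number as a block the test called 4914 genes, and leaving out single libraries gave between 0 and 1845, so the count of 9 is not stable. NR4A2 and IL11 did not pass this test without the block (adjusted p = 0.106 for both) and passed it with the block (0.00345 and 0.00926), as did 130 of the 162 higher genes of the all-pairs class.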

How the data were processed

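RNA of KP4 cells from 6 cm plates was depleted of ribosomal RNA and sequenced as read pairs. The authors trimmed reads with cutadapt, aligned them with STAR to hg38, counted genes with featureCounts and normalized with DESeq2. The annotation and strand setting are not given in the sources used here. The deposited table holds normalized counts (signal units, reads divided by a size factor per library). The step of 1 read could be read from the table: within 0.01, 100% of values were whole reads, 30667735 to 41052203 per library. This number of read pairs limits the precision of genes with few counts. Differences between replicates exceeded counting noise in every group, with chi-square per degree of freedom from 5.69 to 51.5.

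Genes with a mean of at least 10 were tested with limma-trend (limma 3.58.1, R 4.3.3) on log2(normalized count + 1). All 12 libraries entered 1 fit without a block, and p-values were adjusted by Benjamini and Hochberg. Calls required an adjusted p under 0.05 and a fold change over 1.5. GC content and length came from GENCODE 44 for 99.7% of tested genes, and the trend was a loess with a span of 0.3. On the recovered reads edgeR 4.0.16 called 526 higher and 90 lower genes and DESeq2 1.42.0 371 and 71. Other alternatives changed the pseudocount, low-count filter, scaling, libraries in the fit, call rule and the limit per pair. The tests were checked on simulated data.

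The labels give the same replicate numbers in every group. Deviations from the group means correlated between same-numbered libraries (r = 0.252, 0.420 and 0.219 for DMSO with FK, 0.171, 0.200 and 0.226 for Met with Met+FK), so the numbers were taken to pair the libraries. With the GC trend removed these were 0.138, 0.176 and 0.132, and 0.160, 0.0954 and 0.0748. The labels do not say what a number marks.

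Members and gene lists were chosen with earlier results of these data known. Named were the genes with the largest changes at a mean of at least 100 (up to 10 higher and 10 lower in the all-pairs class, 4 and 4 on replicate 2), up to 4 members of each list by adjusted p, all NAD genes, and genes the study names. The following were named after their values were seen: IL1A, NFKB2, NFKBIA, TGFA, CREM, PDE4B, NR4A1, EGR2, SRF, FOSL1, EGR1, FOS, DUSP8, ATF4, ASNS, TRIB3, PHGDH, DDIT3, CHAC1, XPOT, TGFBI, NFE2L2, NQO1, LOX, FAM110B and the marker genes.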

Additional observations from a re-analysis of the deposited data

Results flagged for a closer look

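The FK866 response of 9 genes differed between cells with and without metformin, by a test of that difference itself in limma-trend over the 12 libraries. This count is not stable, since fits without single libraries gave 0 to 1845 genes. Values are the log2 effect of FK866 in metformin-treated cells less its effect in the others, and the adjusted p was 0.0407 for each gene but EREG. EREG differed by -1.42 (adjusted p = 0.0174) and PTGS2 by -1.29, the latter rising by 2.0 without metformin and differing by 0.70 (adjusted p = 0.0996) with it. ATF3 differed by -0.673, having risen by 1.33 without and 0.66 with metformin.

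The other genes were chosen by this test alone. CYP1B1, an enzyme of xenobiotic and oestrogen metabolism, differed by -1.27. It stood at 253, 319 and 283 normalized counts in DMSO and at 575, 889 and 681 in FK, but at 477, 476 and 445 in Met and 467, 537 and 437 in Met+FK. SLC5A3, the sodium and myo-inositol cotransporter, differed by -1.07, with 3453, 3627 and 3108 in DMSO, 6788, 9755 and 7460 in FK, 4851, 5111 and 4497 in Met, and 5606, 5547 and 4940.5 in Met+FK. In both genes the FK libraries stood above all 9 others.

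PTCHD1, which encodes a patched-related membrane protein, differed by -1.05, at 151 to 185 in DMSO, 351 to 421 in FK, and 150.2 to 198 in the 6 metformin libraries. TRIB2, a pseudokinase, differed by -0.744 and was higher by 0.47 without metformin (adjusted p = 0.00725), under 1.5-fold. AC116158.3 differed by -2.0 on few reads, with 11.5 to 17.4 normalized counts in DMSO, 31.0 to 43.4 in FK, 37.5 to 43.5 in Met and 19.8 to 31.4 in Met+FK. CCN1, a matricellular protein, differed by 0.812, with an FK866 difference of -0.44 (adjusted p = 0.0172) without metformin and 0.37 (adjusted p = 0.260) with it.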

How the results depend on the processing

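Counts below are higher and lower genes unless said otherwise. Leaving out single libraries gave 84 to 1065 and 10 to 198 genes, 60 to 168 and 4 to 27 in the all-pairs class, 6 to 503 and 0 to 122 on replicate 2, and 0 to 1845 for the difference with metformin. With the 6 DMSO and FK libraries alone there were 89 and 23 genes, 68 and 8 in all pairs, 10 and 9 on replicate 2. With the GC and length trend removed there were 168 and 30, 89 and 9 in all pairs, 33 and 10 on replicate 2, and 43 for the difference with metformin. With that trend removed and the replicate number as a block these were 220 and 52, 97 and 12, 42 and 15, and 509. The block alone gave 4914 genes for the difference with metformin, against 9 without it, and moved no other count by over 1.5 times (540 and 163 genes in all). Without both libraries numbered 2 there were 275 and 49, with 11 lower in all pairs and, by construction, 0 and 0 on replicate 2. DESeq2 gave 71 lower genes, 104 and 12 in all pairs and 872 for the difference with metformin, and edgeR 244 and 24 on replicate 2. Testing every gene with any read gave 47 lower in all pairs, 87 and 22 on replicate 2 and 1 for the difference with metformin, where more genes share the adjustment. A pseudocount of 10 gave 13 lower genes in all pairs. The adjusted p alone gave 1738 and 1513, with 596 and 205 on replicate 2. A looser limit per pair gave 388 and 103 genes in all pairs and 0 and 0 on replicate 2, and the 2-fold limit gave 27 and 2 in all pairs. Scaling to equal totals, TMM and a pseudocount of 0.1 moved no count by over 1.5 times. Where no reason is given the cause was not tested.

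Of 230 named genes 181 had an adjusted p under 0.05, and 39 of them kept it in each of 19 alternatives. With the GC trend removed, with or without the block, the differences of HSPA9 (0.20) and LAMP2 (0.39) turned to -0.030 and -0.024. Over all named genes and alternatives 771 values lost the threshold, 69 gained it, 4 turned in sign and 3522 did none of these. Genes under about 20 normalized counts, such as DUSP8 and KMO, are limited by depth.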

Other observations

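Genes that the aryl hydrocarbon receptor induces were among those that rose in all 3 pairs. They were in no list and were chosen after their values were seen, so no test is given for them as a group. CYP1A1, a monooxygenase and the classical target of this receptor, stood at 367, 265 and 322 normalized counts in DMSO and 646, 734 and 774 in FK (1.18 ± 0.15, adjusted p = 0.000593). TIPARP, a mono-ADP-ribosyltransferase that uses NAD and restrains the receptor, stood at 3806, 4991 and 4744 against 8091, 10476 and 9211 (1.04 ± 0.12, adjusted p = 0.000216). CYP1B1 rose by 1.31 ± 0.14 (adjusted p = 0.000156). AHR itself rose by 0.63 and rested on replicate 2 (adjusted p = 0.00795), while the repressor AHRR differed by 0.36 (adjusted p = 0.0891).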
